A study of Vitis vinifera and Vitis riparia and Vitis amurensis with 189 samples.

Results

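The contrast described here is between buds of Riesling, a cultivar of Vitis vinifera, on day 7 and on day 1 after dormant canes were brought from winter to room temperature. The libraries were chosen by their titles, which give the cultivar, the day and the replicate. They are 3 libraries of day 7 and 3 of day 1, which makes 6 of the 52 libraries labelled Riesling and of the 189 in the series. The series followed buds of Riesling, Cabernet Sauvignon, Vitis riparia and Vitis amurensis on successive days until budburst was seen. Per the labels, the Riesling vines grew in a commercial vineyard, the canes were cut to pieces with a single node that stood in cups of water, and buds were cut off and frozen on each day. Both days share this treatment, so that only the time in warmth differs by label, and there is no series of buds kept in the cold. The labels speak of replicate buds and do not say whether the replicates came from separate vines, so p-values measure the spread between libraries of a day. That spread was estimated over all days of a genotype together, and over all 189 libraries for differences between genotypes. A bud holds many cell types, and fewer cells of a type cannot be told apart from less RNA per cell.

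Grapevine buds enter winter dormant and resistant to frost. In warmth they lose that resistance, which is called deacclimation, and take up water, swell and open, which is budburst. Large sets of transcripts are known to change on the way, among them those of cold protection, hormones, cell walls and photosynthesis. The gene identifiers have the Vitvi form, and none of them occurs in the gene table used here for names. The genes are therefore described by identifier, level and course over time, without function, position or sequence. For the same reason the labelled tissue could not be checked against bud markers.

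The libraries of day 7 held 7022218, 2128189 and 5439120 counts in genes, against 7957205, 2500099 and 2855195 in those of day 1. A floor of 3 counts corresponds to between 0.377 and 1.41 CPM, which is a gene's count per library size, in the 6 libraries. Across genes, log2 CPM correlated with Pearson's r between 0.951 and 0.967 within day 7 and between 0.95 and 0.965 within day 1, against 0.844 to 0.918 between the days. Of the day 1 libraries, replicate 1 lay nearest to day 7, with r between 0.911 and 0.918. Records that the counter placed in no gene took 12.8% to 14.6% of day 7 libraries, and 14.7%, 13.1% and 26.3% of day 1 replicates 1, 2 and 3. With 5 marker genes of Riesling and 3 of Cabernet Sauvignon, the 6 libraries had at least 98.5% Riesling markers. The 10 libraries labelled Riesling on days 5, 8 and 11 carried Cabernet Sauvignon markers instead, and those labelled Cabernet Sauvignon on these days carried Riesling markers. Those labelled Riesling are in no comparison between Riesling days other than through the filter, scaling and estimate of spread of the shared fit. Those labelled Cabernet Sauvignon are also set against Riesling day by day at the end of the text, and both are marked where their values are shown. The library labelled Riesling day 4 replicate 2 carried 20.1% Cabernet Sauvignon markers and is kept in the day 4 values. Without it, which was tried after seeing the data, day 4 minus day 1 gave 3355 genes, and the day 4 mean was 79.3 CPM for Vitvi14g02474 and 15400 CPM for Vitvi19g00581, against 3848 genes and means of 72.3 and 21300 CPM with it.

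Between the 2 days a large part of the expressed genes changed, in similar numbers in both directions. Of 21153 genes tested, 3024 were higher on day 7 and are called risers (14.3%), and 2857 were lower and are called fallers (13.5%), so that 5881 (27.8%) passed an adjusted p under 0.05 (edgeR quasi-likelihood test, Benjamini-Hochberg adjustment). The median log2 fold change was 1.63 among risers and -1.45 among fallers, against 0.054 over all genes tested. A change of at least 2-fold was found in 2427 risers and 2073 fallers, one of at least 8-fold in 602 and 400, and one of at least 32-fold in 181 and 61. The count was 3916 without day 1 replicate 3, the library with most records in no gene, and between 4130 and 5880 without any one of the other 5 libraries. Fitted with that share as a covariate, the count was 5807.

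The change was large in the make-up of the RNA. Risers took 27.6%, 27.2% and 28% of the gene counts in the day 7 libraries, against 12.7%, 9.54% and 8.43% in those of day 1. Fallers took 9.74%, 10.8% and 9.86% on day 7, against 21.4%, 28.7% and 28.3% on day 1. The risers and fallers were chosen on these libraries, so the shares are a description. Day 1 replicate 1 had the largest riser share and the smallest faller share of its day. The libraries of the 2 days do not overlap in CPM for 2847 risers (94.1%) and 2748 fallers (96.2%), where 22.7% and 21.9% of all genes tested were without overlap in the same directions.

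Genes of low level more often rose than fell, and genes of high level more often fell. The genes were put into 4 classes of like size by mean level in the 6 libraries. In the lowest class, with a median of 1.05 CPM, 646 rose (12.2%) and 327 fell (6.18%). In the highest class, with a median of 90.4 CPM, 790 rose (14.9%) and 1057 fell (20%). The expression filter used all Riesling days, so genes near silent on day 1 could enter through days on which they were high. Of the genes tested, 566 had no count on day 1 only, and 101 had none on day 7 only. How far the filter shaped the lowest class was not tested. The median size of a change on the log2 scale was 3.48 for risers and 3.13 for fallers of the lowest class, against 1.11 and 1.05 in the highest. Some transcripts were near the floor on 1 of the days: 336 risers had at most 3 counts over the day 1 libraries, 157 of them none, and 123 fallers had at most 3 counts over those of day 7, 23 of them none. The fitted fold changes of such genes depend on the prior count of the fit, which was left at the edgeR default and is not the one used for log2 CPM.

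Over all risers the highest log2 fold change was 10.42. Among called genes without overlap between the days and with log2 CPM averaging 3 or more, Vitvi14g02474 had the largest rise. It had 76, 125 and 66.7 CPM in the day 7 libraries, against 0.465, 1.61 and 0.382 CPM in those of day 1, which rest on 4, 4 and 1 counts. All day 7 values lie far above those of day 1, and the log2 fold change was 6.95 ± 0.764 (SE; edgeR quasi-likelihood test, adjusted p = 7.61e-09). Its mean was highest on day 12 and lower at the end: it averaged 0.22 ± 0.38 CPM on day 0, 9.83 ± 4.59 on day 2, 72.3 ± 56.1 on day 4, 89.2 ± 31.2 on day 7, 143 ± 28.1 on day 12 and 28.4 ± 8.2 on day 15 (SD, n = 3, but 4 on day 4).

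Vitvi19g00581 had the largest gain in CPM under the same conditions and was among the most abundant transcripts of the bud. It had 12200, 17100 and 20800 CPM on day 7, against 4830, 3880 and 4430 on day 1, without overlap. It took 1.27%, 1.71% and 1.99% of the gene counts on day 7, and 0.522%, 0.386% and 0.406% on day 1. The log2 fold change was 1.93 ± 0.595 (SE; edgeR quasi-likelihood test, adjusted p = 0.0127), and without day 1 replicate 2 it was 1.85 with an adjusted p of 0.0553, which ends the call. The gene stood high for a limited time. It averaged 6130 ± 1560 CPM on day 0, 15600 ± 5100 on day 3, 16700 ± 4320 on day 7, 4140 ± 351 on day 12 and 925 ± 278 on day 15 (SD, n = 3), and on day 9 its libraries spread between 3950 and 40000 CPM.

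Vitvi01g01934 had the largest fall in log2 fold change under the same conditions on overlap and level. It had 0.686, 1.88 and 1.15 CPM on day 7, from 5, 4 and 6 counts, against 21.7, 94.6 and 83.7 CPM on day 1. The groups are far apart, although day 1 replicate 1 was well below the other two, and the log2 fold change was -5.87 ± 0.674 (SE; edgeR quasi-likelihood test, adjusted p = 2.03e-08). Day 1 was its peak rather than a dormant level: the gene averaged 7.8 ± 1.44 CPM on day 0, 66.7 ± 39.3 on day 1, 7.62 ± 2.46 on day 2 and 2.34 ± 0.612 on day 3 (SD, n = 3). Day 0 minus day 1 gave a log2 fold change of -3.09 ± 0.558 (SE, adjusted p = 7.62e-05), a contrast that shares the day 1 libraries with day 7 minus day 1.

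Vitvi02g00161 had the largest loss in CPM under the same conditions and fell over the whole series. It had 639, 978 and 866 CPM on day 7, against 2460, 3230 and 4340 on day 1. All day 7 values lie below all day 1 values, with a log2 fold change of -2.01 ± 0.414 (SE; edgeR quasi-likelihood test, adjusted p = 0.000276). Its mean was 4690 ± 1330 CPM on day 0, 3340 ± 945 on day 1, 1560 ± 321 on day 2, 1030 ± 77.7 on day 6, 426 ± 11.5 on day 12 and 118 ± 66.5 on day 15 (SD, n = 3).

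**Figure D1:**
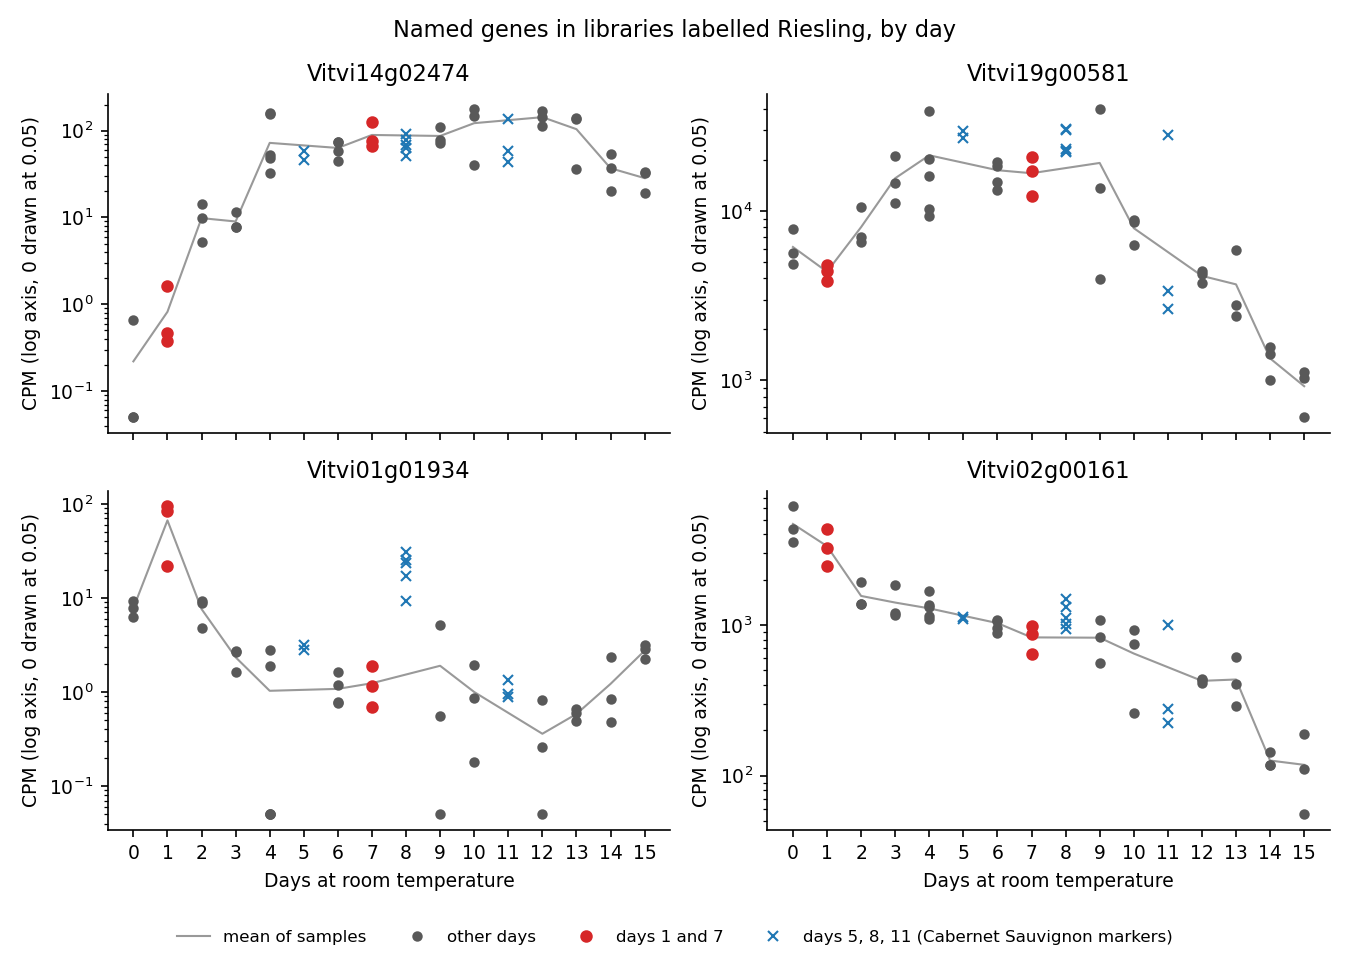
Levels of the 4 named genes (CPM, log axis, values of 0 drawn at 0.05) in each library labelled Riesling against days at room temperature; lines join means without days 5, 8 and 11, whose libraries carry Cabernet Sauvignon markers and are drawn as crosses. Vitvi14g02474 averaged 143 CPM on day 12 and 28.4 CPM on day 15, Vitvi19g00581 was at 925 CPM on day 15, Vitvi01g01934 had its peak on day 1, and Vitvi02g00161 was at 118 CPM on day 15.

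Contrasts of other days with day 1 show when the count built up. They share the day 1 libraries with each other and with day 7, so the counts are given side by side only. On day 2, 536 genes differed from day 1 (2.53% of those tested), on day 3 1766 (8.35%), on day 4 3848 (18.2%), on day 6 5564 (26.3%), on day 7 5881, on day 9 6368 (30.1%), on day 12 8841 (41.8%) and on day 15 12499 (59.1%). Day 0 differed from day 1 in 3825 genes (18.1%). The numbers of libraries and their depth differ between the days, which also moves such counts.

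Where in the course of warming the risers and fallers moved was seen in Riesling contrasts that compare none of the 6 libraries, which enter only through the shared fit. In day 6 minus day 2, 563 genes were higher (2.66%) and 532 lower (2.52%). Of the 3024 risers, 518 were higher there (17.1%) and 1 lower, and of the 2857 fallers 475 were lower (16.6%) and none higher. Seen from the other list, 92% of the genes higher in day 6 minus day 2 were risers, and 89.3% of those lower were fallers. Of the named genes, Vitvi14g02474 was higher, with a log2 fold change of 2.65 (adjusted p = 0.00193), and Vitvi01g01934 lower, with -2.81 (adjusted p = 0.00344). Vitvi19g00581, with 1.04, and Vitvi02g00161, with -0.652, did not pass (adjusted p = 0.304 and 0.344, edgeR quasi-likelihood tests). The day 6 minus day 2 count is small and depends on single libraries: of 1095 genes (5.18%), 281 passed without day 2 replicate 1, 584 without day 2 replicate 2, and 686, 650 and 597 without day 6 replicates 1, 3 and 4. Day 6 replicates 1 and 4 are near copies of each other, and with them summed as 1 sample the count was 667.

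The first 2 days of warming moved many of the same genes. In day 2 minus day 0, 3090 genes were higher (14.6%) and 3145 lower (14.9%). Among the risers 1093 were higher (36.1%) and 127 lower (4.2%), and among the fallers 1166 were lower (40.8%) and 233 higher (8.16%). Without any 1 of the 6 libraries 36.4% to 42.1% of risers were higher and 40.3% to 44.6% of fallers lower, and the 127 lower risers became 80, 69 and 83 without day 1 replicate 2, day 1 replicate 3 and day 7 replicate 3. Of the named genes, Vitvi14g02474 was higher, with a log2 fold change of 5.58 (adjusted p = 4.25e-05), and Vitvi02g00161 lower, with -1.59 (adjusted p = 0.00271). Vitvi19g00581, with 0.39, and Vitvi01g01934, with -0.04, did not pass (adjusted p = 0.659 and 0.989, edgeR quasi-likelihood tests).

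At the end of the series the risers did not go on rising as a set. In day 15 minus day 9, 3797 genes were higher (18%) and 3938 lower (18.6%). Here 933 risers were lower (30.9%) and 480 higher (15.9%). Of the fallers, 541 were lower (18.9%) and 469 higher (16.4%), close to the shares of all genes. Without any 1 of the 6 libraries 28.8% to 37.4% of risers were lower and 13.1% to 17.1% higher. The 480 higher risers became 305, 273 and 300 without day 1 replicate 2, day 1 replicate 3 and day 7 replicate 1, and the 469 higher fallers became 296 without day 7 replicate 3. No library of day 9 or day 15 was left out in turn. Day 9 was uneven: its replicates 1 and 2 held 864678 and 790198 counts in genes, and replicate 3 held 6411698. Records in no gene took 35.5% of day 9 replicate 2, and 27.54%, 9.56% and 31.85% of day 15 replicates 1, 2 and 3. Fitted with that share as a covariate, day 15 minus day 9 gave 7995 genes in place of 7735. Across genes, the log2 fold changes of day 7 minus day 1 correlated with those of day 15 minus day 9 with r = -0.0294, and with those of day 6 minus day 2 and day 2 minus day 0 with r = 0.631 and 0.366, as a description over 21153 genes that are not independent. Both Vitvi14g02474 and Vitvi19g00581 were lower at day 15 than at day 9, with log2 fold changes of -1.61 (adjusted p = 0.013) and -4.37 (adjusted p = 2.45e-06, edgeR quasi-likelihood tests).

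From the dormant bud to the last day most of both sets kept their direction. In day 15 minus day 0, 7136 genes were higher (33.7%) and 6185 lower (29.2%). Records in no gene took 11.75% to 20.03% of day 0 libraries and 9.56% to 31.85% of day 15 libraries. Fitted with that share as a covariate, the contrast gave 13280 genes in place of 13321. Of the risers 1772 were higher (58.6%) and 370 lower (12.2%), and of the fallers 1915 were lower (67%) and 223 higher (7.81%). Of the risers, 367 (12.1%) were higher in day 2 minus day 0 and lower in day 15 minus day 9, against 858 (4.06%) of all genes tested. Lower both in day 15 minus day 9 and in day 15 minus day 0, like Vitvi19g00581, were 329 risers (10.9%), which is below the 2721 (12.9%) of all genes tested. Without any 1 of the 6 libraries 54.3% to 62.3% of risers were higher in day 15 minus day 0 and 66% to 73.1% of fallers lower. The number of risers and fallers changes with the library left out: the 1772 higher risers became 1160 without day 1 replicate 3, the 370 lower ones became 227 and 232 without day 1 replicates 2 and 3, and the 223 higher fallers became 140, 143 and 126 without day 1 replicate 2, day 1 replicate 3 and day 7 replicate 3.

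**Figure D2:**
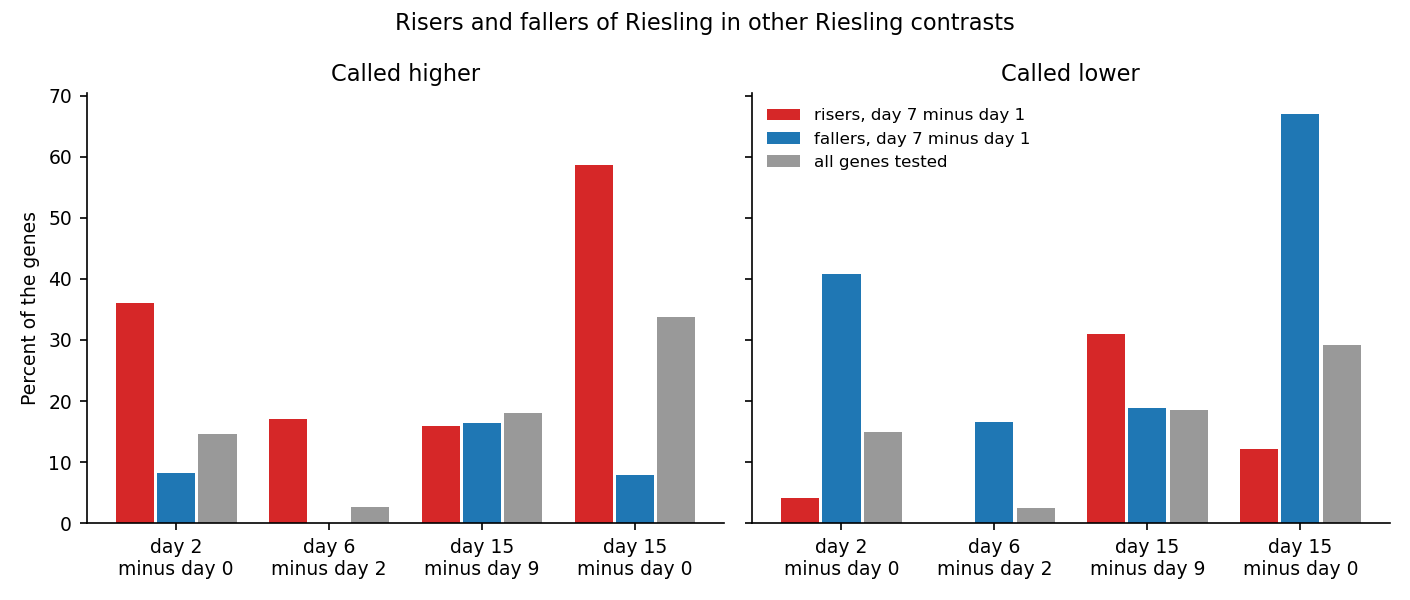
Percent of risers, of fallers and of all genes tested that were called higher (left) or lower (right) in 4 Riesling contrasts of other days. The day 7 and day 1 libraries enter these only through the shared fit. Risers are higher more often than all genes in day 2 minus day 0, day 6 minus day 2 and day 15 minus day 0, while in day 15 minus day 9 they are lower in 30.9% of cases.

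Cabernet Sauvignon, the other vinifera cultivar, is the nearest comparison. Its day 7 minus day 1, from 4 and 3 libraries, gave 3295 higher (15.3%) and 3061 lower genes (14.2%). Of the 3008 risers tested in both fits, 2072 were higher in Cabernet Sauvignon (68.9%) and none lower, and of 2819 fallers 2047 were lower (72.6%) and 3 higher. Of the genes higher or lower in Cabernet Sauvignon, 63.8% and 67.8% were Riesling risers and fallers. Across 20753 genes the log2 fold changes correlated with r = 0.757. One of the Cabernet Sauvignon day 7 libraries, replicate 2, has 263961 counts only. Without it that cultivar's count was 6007, and without any other library of its 2 days it lay between 4940 and 5637, against 6356 (29.6%) with all.

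The difference between the cultivars was tested itself, as the Riesling change minus the Cabernet Sauvignon change. Of 23678 genes, 3 passed (0.0127%), of which 1 (0.00422%) changed more upwards and 2 (0.00845%) more downwards in Riesling, and 1041 had an unadjusted p under 0.05, which is 4.4% of those tested. Over risers and fallers of Riesling the median SE of this difference was 0.55 on the log2 scale, so that a small number of passing genes does not show that the cultivars act alike. On simulated counts this test also missed part of the large changes. None of the 4 named genes passed. The nearest was Vitvi01g01934, with -3.42 ± 0.973 on the log2 scale (SE; edgeR quasi-likelihood test, adjusted p = 0.437), where the log2 fold changes were -5.87 in Riesling and -2.49 in Cabernet Sauvignon.

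V. riparia and V. amurensis are wild species that, per the labels, were kept as 2 clonal vines in a germplasm repository, so that species and growing site cannot be told apart, and neither can distance from a vinifera annotation. In V. riparia, from 3 and 4 libraries, day 7 minus day 1 gave 3401 higher (16.7%) and 2212 lower genes (10.9%). Of 2823 risers 1669 were higher there (59.1%) and 11 lower, and of 2757 fallers 1391 were lower (50.5%) and 15 higher. Across 19440 genes r was 0.693. Day 1 replicates 2 and 4 of V. riparia are near copies, so these 4 libraries are 3 samples. With the copies summed, an alternative chosen after seeing the data, 5069 genes passed in place of 5613 (27.6%), 1467 of 2824 risers were higher (51.9%) and 1423 of 2756 fallers lower (51.6%). The 11 lower risers became 5, 7 and 7 without Riesling day 1 replicates 2 and 3 and day 7 replicate 2, and the 15 higher fallers became 6, 9 and 6 without day 1 replicate 2 and day 7 replicates 2 and 3. In V. amurensis, from 3 and 3 libraries, 6005 genes were higher (28.9%) and 5198 lower (25%). Of 2855 risers 1506 were higher there (52.7%) and 226 lower (7.92%), and of 2749 fallers 1519 were lower (55.3%) and 229 higher (8.33%). Across 19687 genes r was 0.471. The 226 lower risers became 122 and 147 without Riesling day 1 replicates 2 and 3, and the 229 higher fallers became 136, 134, 152 and 143 without Riesling day 1 replicates 2 and 3 and day 7 replicates 1 and 3. Since V. amurensis had more genes called in all, the shares are to be read against its own background.

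In the test of the difference, 392 genes passed between Riesling and V. riparia (1.66%), of which 134 (0.566%) changed more upwards and 258 (1.09%) more downwards in Riesling. That count was 274 with near copies summed, also chosen after seeing the data, 195 with only the libraries of days 1 and 7 in the fit, and 220, 250 and 216 without Riesling day 1 replicate 2, day 7 replicate 2 and day 7 replicate 3. Between Riesling and V. amurensis 4746 passed (20%), 1925 (8.13%) more upwards and 2821 (11.9%) more downwards in Riesling, and 4153 with days 1 and 7 alone. Of the 4621 that were tested in both single fits, 455 changed in opposite directions, 868 passed in Riesling only and 2774 in V. amurensis only.

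The named genes differed in this respect. Vitvi14g02474 rose in all 4 genotypes, with log2 fold changes of 6.95 in Riesling, 5.96 in Cabernet Sauvignon, 6.35 in V. riparia and 4.37 in V. amurensis. Vitvi02g00161 fell in all 4, with log2 fold changes of -2.01 in Riesling, -1.5 in Cabernet Sauvignon, -1.83 in V. riparia and -3.01 in V. amurensis. Vitvi19g00581 rose in the cultivars, by 1.93 in Riesling and 1.77 in Cabernet Sauvignon, and did not pass in V. riparia, with -0.27, or V. amurensis, with -1.36. Its change in Riesling minus that in V. amurensis was 3.11 ± 0.847 (SE; edgeR quasi-likelihood test, adjusted p = 0.00403). The difference from V. riparia, 2.2 ± 0.817, did not pass (SE, same test, adjusted p = 0.176). Vitvi01g01934 fell in Riesling, Cabernet Sauvignon and V. riparia, and rose in V. amurensis with a log2 fold change of 1.99 (adjusted p = 0.0251). The difference between Riesling and V. amurensis was -8.05 ± 1.01 (SE; edgeR quasi-likelihood test, adjusted p = 5.1e-10).

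**Figure D3:**
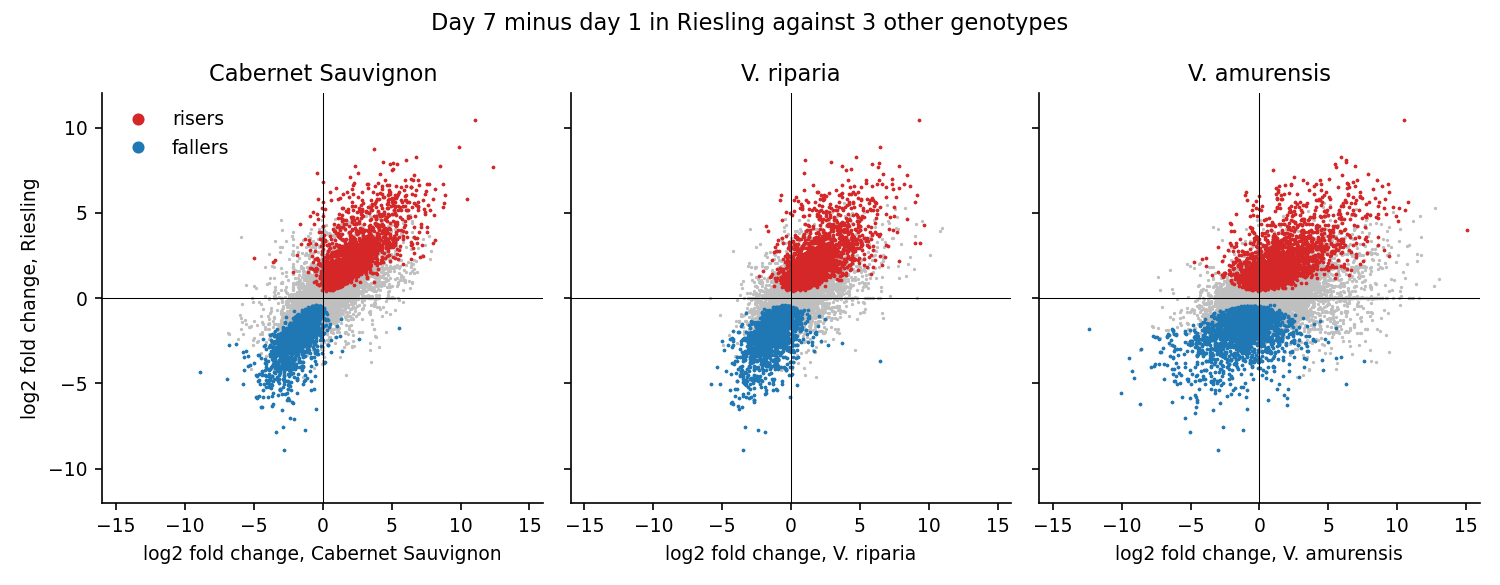
Each point is a gene, with its log2 fold change of day 7 minus day 1 in Riesling (vertical axis) against that in Cabernet Sauvignon, V. riparia and V. amurensis (horizontal axes); risers of Riesling are red, fallers blue, other genes grey. The cloud is tightest against Cabernet Sauvignon, where r is 0.757, and widest against V. amurensis, where r is 0.471.

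Since risers and fallers were picked on the Riesling libraries of days 7 and 1, their fold changes in Riesling, and only there, carry that choice. Genes picked on Riesling day 6 minus day 2, which compares neither day, and tested in all 4 genotypes give a set picked on other libraries. That contrast comes from the same fit, so days 7 and 1 still enter through the filter, scaling and estimate of spread. In it the near copies of day 6 counted as separate libraries, and with them summed fewer genes passed, as given above. The 529 genes higher there had a median log2 fold change, day 7 minus day 1, of 2 in Riesling, 2.01 in Cabernet Sauvignon, 1.53 in V. riparia and 1.12 in V. amurensis. The 493 genes lower there had medians of -2.04, -1.83, -1.37 and -1.2 in the same order. The medians of all genes tested in the 4 lay between -0.0188 and 0.0709. These genes were still picked in Riesling, and differences between the medians were not tested.

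A score followed the risers and fallers over all days. It is the mean log2 CPM of risers minus that of fallers, set to 0 at each genotype's own day 1 and to 1 at Riesling day 7, so that these 2 points are fixed by construction. In Riesling the score was 0.00829 ± 0.0629 on day 0, 0.429 ± 0.0941 on day 2, 0.583 ± 0.13 on day 3, 0.715 ± 0.0746 on day 4 (0.69 ± 0.0676 without replicate 2, n = 3) and 0.895 ± 0.00584 on day 6 (SD, n = 3, but 4 on day 4). After day 7 the score was 0.982 ± 0.0752 on day 9, 1.01 ± 0.0126 on day 12 and 0.926 ± 0.0521 on day 15. It is a mean over genes that moved apart, since 933 risers were lower and 480 higher in day 15 minus day 9. A score built likewise from the genes called in day 6 minus day 2 fell late. In Riesling that second score was 0.989 ± 0.0699 on day 9, 0.956 ± 0.0201 on day 12 and 0.802 ± 0.0439 on day 15. In the score of risers and fallers, the day 1 libraries ran from -0.119 to 0.208, replicate 1 being the highest, and those of day 7 from 0.954 to 1.04. On day 7 this score was 0.856 ± 0.0415 in Cabernet Sauvignon (n = 4), 0.713 ± 0.123 in V. riparia and 0.605 ± 0.046 in V. amurensis (n = 3), all lower than in Riesling, on whose values the genes were picked. V. amurensis was at 0.387 ± 0.0249 on day 2 and at 0.547 ± 0.0218 on day 4, and from there on its means lay between 0.49 and 0.605.

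**Figure D4:**
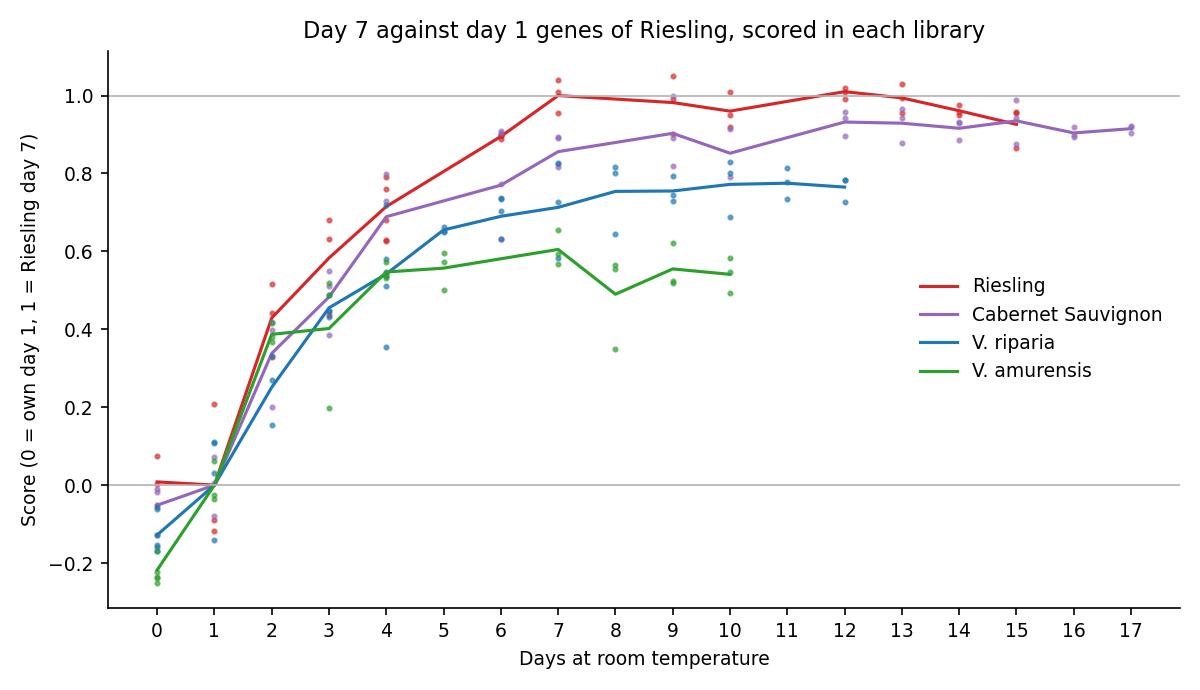
Score of Riesling risers minus fallers (vertical axis, 0 at each genotype's day 1 and 1 at Riesling day 7) against days at room temperature; points are libraries, lines are means of samples, and days 5, 8 and 11 of both cultivars are left out. Riesling reaches 0.895 on day 6 and stays between 0.926 and 1.01 from day 7 to day 15.

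The Riesling change from day 1 to day 7 was also set against the change from day 1 to each other day in the other genotypes. Fewest genes differed at day 7 in Cabernet Sauvignon, with 3. Days 4 and 6 gave 12 each (0.0507%) and day 9 gave 14 (0.0591%), whereas day 2 gave 391 (1.65%) and day 12 gave 3546 (15%). For V. riparia the fewest were 309 (1.31%) at day 5, with 1451 (6.13%) at day 2, 392 (1.66%) at day 7 and 5923 (25%) at day 11. For V. amurensis the fewest were 383 (1.62%) at day 2, with 860 (3.63%) at day 3, 1389 (5.87%) at day 4 and 6501 (27.5%) at day 10. These counts also move with the number and depth of the libraries of each day. In V. riparia day 4, records in no gene took 69% and 68.4% of replicates 1 and 4, and replicate 2 held 168521 counts in genes. Where each fit held the 4 groups compared alone, the day with the fewest was day 5 again for V. riparia, with 58 genes against 65 at day 4 and 68 at day 7, where day 4 had 740 (3.13%) in the fit to all libraries, but day 3 for V. amurensis, with 995 against 1193 at day 2, while Cabernet Sauvignon had 1 gene at both day 6 and day 7. The 3 days labelled Cabernet Sauvignon that carry Riesling markers gave 339 (1.43%), 392 (1.66%) and 2110 (8.91%) on days 5, 8 and 11, and Cabernet Sauvignon day 6 replicates 1 and 4 carried Riesling markers in part, 40% and 40.6%.

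**Figure D5:**
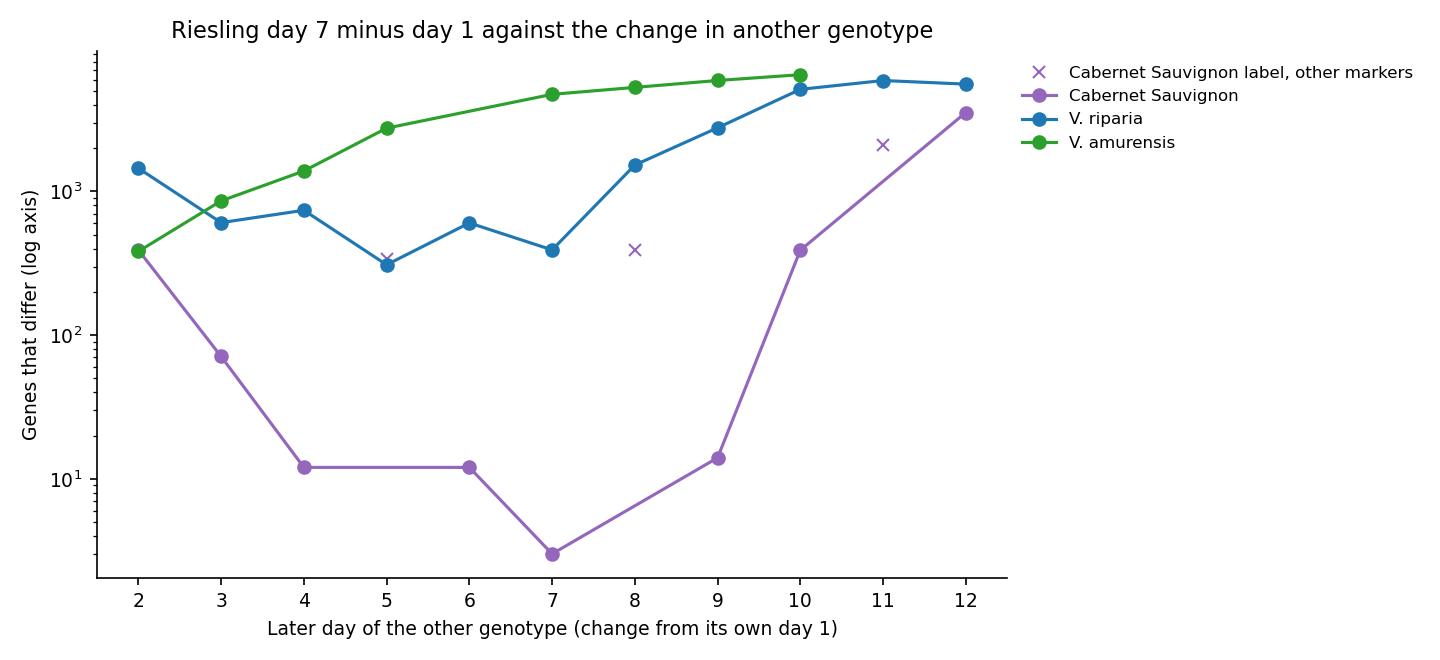
Number of genes (log axis) whose change from day 1 to day 7 in Riesling differed from the change from day 1 to the day on the horizontal axis in another genotype, of 23678 genes tested; crosses are days labelled Cabernet Sauvignon whose libraries carry Riesling markers. The lowest points are 3 genes at Cabernet Sauvignon day 7, 309 at V. riparia day 5 and 383 at V. amurensis day 2.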

How the data were processed

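Genotype, day and replicate were taken from the labels. The authors deposited whole-number counts per gene for each library. Per the submitters' processing notes, cutadapt, STAR, HTSeq and DESeq2 were used; versions, genome build and annotation are not given in the sources used here. Bookkeeping rows of unassigned records were left out of library sizes and tests; the share that the counter placed in no gene is a covariate in 1 alternative. From the counts, edgeR 4.0.16 in R 4.3.3 fitted a quasi-likelihood model to all Riesling libraries with day as a factor (TMM, expression filter, Benjamini-Hochberg, threshold 0.05), and likewise for each other genotype. Differences between genotypes came from 1 fit to the 189 libraries, in which glmQLFit estimated the dispersion. SE is the log2 fold change divided by the square root of F. CPM are TMM-scaled, and log2 CPM uses a prior count of 2. Pairs of libraries with a biological coefficient of variation under 0.09, 2 of them in Riesling and none on days 7 and 1, count as 1 sample in means. In the main tests they entered as separate libraries. The 4 identifiers named are the genes with the largest log2 fold change and the largest difference in CPM, in each direction, among called genes without overlap whose log2 CPM averaged 3 or more. The members and lists were chosen with earlier results of these data known. The tests were checked on simulated counts, where the test of the difference between genotypes recovered a smaller part of the large changes than the Riesling test did, and its pass mark was lowered after a first run had missed it. Alternatives included DESeq2 1.42.0, other scaling, no filter, the replicate block and left-out libraries.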

Additional observations from a re-analysis of the deposited data

Results flagged for a closer look

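In Vitvi14g02474, the mean of the near copies Riesling day 4 replicates 3 and 5, 155 CPM, stood apart from the other 3 samples of that day, which lay between 32.5 and 52.5 CPM. Chance flags about 1 in 20 groups, and 8 groups were tested. The change from day 1 to day 7 in Riesling differed from that in V. amurensis for Vitvi19g00581, by 3.11 on the log2 scale, and for Vitvi01g01934, by -8.05. The 10 libraries labelled Riesling on days 5, 8 and 11, which enter comparisons between Riesling days only through the shared fit, carried at least 93% Cabernet Sauvignon markers.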

How the results depend on the processing

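The count of 5881 genes in Riesling day 7 minus day 1 lay between 3916 and 5880 when each of the 6 libraries was left out in turn. Under the other alternatives run it lay between 4500, at a change of at least 2-fold, and 6325, with the dispersion estimated by glmQLFit, an alternative chosen after seeing the data. The replicate numbers gave no sign of pairing between the libraries of days 7 and 1. Deviations of libraries with the same number correlated with 0.15, 0.0709 and -0.09, and those with unlike numbers with -0.219 to 0.164. So few libraries cannot show that no pairing exists. With the replicate block the count was 5889. For day 6 minus day 2 the left-out libraries gave 281 to 786 genes, near copies summed gave 667 and replicates 1 to 3 alone gave 553, both chosen after seeing the data, against 1095. With only days 1 and 7 in the fit, the difference from Cabernet Sauvignon passed in 1 gene and that from V. riparia in 195, against 3 and 392; the cause was not tested. Left-out Riesling libraries gave 2 to 4 genes against Cabernet Sauvignon, 216 to 393 against V. riparia and 3820 to 4250 against V. amurensis. Of 64 recomputed values of the 4 named genes, 63 kept their direction and their side of the threshold; the exception is given with Vitvi19g00581. Comparisons with single days of other genotypes, overlaps with other contrasts, and their alternatives were added after seeing the data. With DESeq2 size factors, the days with the fewest differing genes were again day 7 of Cabernet Sauvignon (3), day 5 of V. riparia (316) and day 2 of V. amurensis (400). Depth sets a floor of up to 1.41 CPM, on unscaled gene totals, in the 6 libraries.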
